A study of Mus musculus with 10 samples.

Results

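Keratinocyte and epithelial genes were followed through WEHI-164 tumors, where they served as a measure of skin in the collected pieces. The 10 genes were defined by name, for their known function in epithelia, with earlier results of these data known. All 10 were found among the 26378 named genes of the count table. They were Krt5, Krt14, Krt15, Krt10 and Krt1, keratins of skin, Epcam, Cdh1, Dsp and Perp, genes of epithelial adhesion and cell junctions, and Sfn, the gene of 14-3-3 sigma. Of the 10 genes, 4 (Krt10, Cdh1, Dsp and Sfn) passed a filter on low values, as did 14944 of all named genes. The filter asked for a level, in at least 3 tumors, that was worth 5.77 counts in the smallest library and 11.3 in the largest. The other 6 were too low for the test across genes and are given by their counts. Levels are in CPM, counts scaled to a common library size.

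WEHI-164 is a mouse fibrosarcoma cell line, here grown under the skin of wild-type female BALB/c mice. Most of each tumor was removed by surgery, the removed tissue was stored for RNA, and a hydrogel loaded with poly(I:C), an agonist of RNA sensors, was then placed on what remained. Responders (n = 5; tumors 5, 9, 10, 11 and 12) regressed completely, and non-responders (n = 5; tumors 1, 2, 3, 6 and 7) showed no growth delay. All 10 pieces were taken before the hydrogel, so both groups were untreated when sampled, and the comparison asks whether the tissue already differed. Each tumor came from a separate mouse that had received the same cell line, so the p-values measure the spread between mice. Polyadenylated RNA was sequenced in bulk, and 15778380 to 30785314 estimated counts per responder and 19606116 to 27908359 per non-responder fell on named genes. In such data fewer cells of a type and less RNA per cell cannot be told apart. Vim, the mesenchymal intermediate filament gene, had 73513 to 172745 counts per tumor. A mesenchymal gene was thus read in every piece, which does not tell WEHI-164 cells from other mesenchymal cells.

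Keratins form filaments from pairs of a type II and a type I protein, and each epithelium is known by its pair. Krt5 and Krt14 pair in the basal, dividing layer of the epidermis, Krt1 and Krt10 in the layers above it, and Krt8 and Krt18 in simple epithelia. A subcutaneous tumor lies beneath the epidermis, next to dermis, hair follicles, fat and a sheet of skin muscle, any of which a surgical piece may carry.

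A pair of tumors stood apart in keratins of the hair follicle, genes singled out with their values known, and is described first. Krt25, Krt27 and Krt71, keratins of the inner root sheath of the hair follicle, were at 0 counts in 8 tumors. Responder 12 had 48 counts of Krt25, 24 of Krt27 and 66 of Krt71. Non-responder 7 had 15, 4 and 19 counts of these genes, in the same order. The 2 tumors thus lay in opposite groups. They also had the highest counts of Tchh, which encodes trichohyalin of the inner root sheath, with 83 in responder 12 and 35 in non-responder 7 against 7 to 22 in the other 8. The pair also had the highest sums of Krt5, Krt14, Krt15 and Krt1, 18 counts in responder 12 and 9 in non-responder 7 against 1 to 6 in the other 8, and the highest counts of Perp. The summed level of all 10 genes, in which Dsp is the largest term, was 29.8 CPM in responder 12 and 28.8 in non-responder 7 but 29.2 in responder 10, and non-responder 7 was near the lowest tumor in the suprabasal and cornified layer list (16.9 CPM, with 16.87 to 21.4 over the series). The log2 fold changes of Krt10, Cdh1, Dsp and Sfn are also given below without these 2 tumors, a choice made after the counts were seen.

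**Figure D1:**
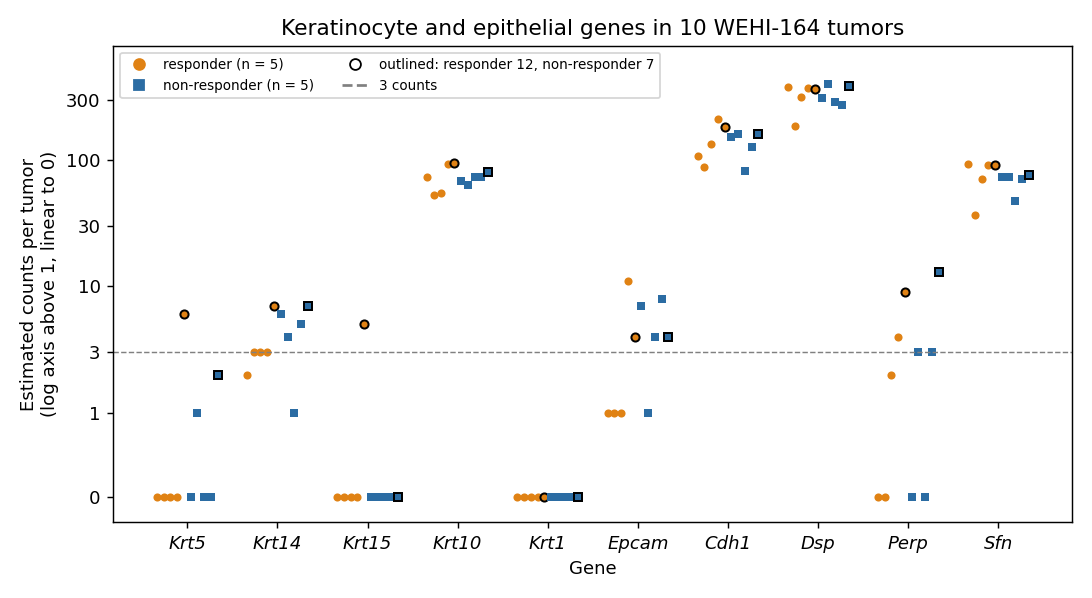
Estimated counts of the 10 genes in each tumor, on a log axis that becomes linear below 1, with responders as circles, non-responders as squares, responder 12 and non-responder 7 outlined, and a dashed line at 3 counts. Krt10, Cdh1, Dsp and Sfn lay at 37 to 397 counts in every tumor, whereas the other 6 genes never exceeded 13.

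The basal keratins were close to 0. Krt5 (GRCm38 chr15:101707070-101712898), which encodes the type II keratin of basal cells, had 6 counts in responder 12 and 0 in responders 5, 9, 10 and 11. Among non-responders it had 2 counts in tumor 7, 1 in tumor 2 and 0 in tumors 1, 3 and 6. Thus 8 of its 9 counts came from responder 12 and non-responder 7. Krt14 (chr11:100203162-100207548), its type I partner, had 2, 3, 3, 3 and 7 counts in responders 5, 9, 10, 11 and 12. It had 6, 4, 1, 5 and 7 counts in non-responders 1, 2, 3, 6 and 7, so the groups overlapped and the highest count was shared by responder 12 and non-responder 7. Krt15 (chr11:100131758-100135928), a keratin of basal cells and of the hair follicle bulge, had 5 counts in responder 12 and 0 in the other 9 tumors.

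Summed by group, Krt5 had 6 counts in responders and 3 in non-responders, Krt14 had 18 and 23, and Krt15 had 5 and 0. The difference in Krt14 did not pass an exact two-sided permutation test on log2(CPM + 1) (p = 0.540), where 0.00794 is the smallest p that 5 tumors against 5 allow. Krt5 and Krt15 were above 0 in 3 tumors and 1 tumor, too few for that test to reach 0.05, so no permutation p is given for them. At 1 to 7 counts per tumor, counting error limits what the spread of Krt14 can show. Of the 31-base words in the Krt14 transcripts, 28.2% also occurred in other genes, most of them in Krt16, so part of its few estimated counts may be assigned to the wrong keratin. For Krt5 that share was 15.8%, most of it with Krt6a, and for Krt15 it was 3.74%.

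The suprabasal pair was split. Krt1 (chr15:101845426-101850794), the type II keratin of the upper epidermis, had 0 counts in all 10 tumors, which allows a level of up to 0.0128 CPM over the series when 3 counts are taken as the limit of a count of 0. Krt10 (chr11:99385254-99389364), its type I partner, was present in every tumor. Responders 5, 9, 10, 11 and 12 had 73, 53, 55, 93 and 94 counts of Krt10, and non-responders 1, 2, 3, 6 and 7 had 68, 64, 73, 74 and 80. Per kilobase of transcript, Krt10 was at 2.36 CPM and therefore at least 453-fold above the limit for Krt1, and it was 22.8-fold above Krt14. Lengths are the median over a gene's protein-coding transcripts, and with the longest transcript these ratios were 366-fold or more and 14.4-fold.

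Scaled to library size by TMM, the trimmed mean of M-values, Krt10 averaged 3.14 ± 0.367 CPM in responders against 3.12 ± 0.521 in non-responders. Here and below ± is the SD of the 5 tumors of a group. The groups overlapped. Its log2 fold change, responders over non-responders, was 0.02 (SE 0.14, 95% interval -0.29 to 0.33, edgeR adjusted p = 0.987, exact permutation p = 0.913). Without responder 12 and non-responder 7 it was -0.04 (edgeR adjusted p = 0.996). Krt10 overlaps the antisense gene Gm11940 by 558 bases, and the sources used here do not state whether the libraries kept strand. Of the 31-base words in the Krt10 transcripts, 4.21% also occurred in another gene, all of them in Gm11940. Reads from that shared part may not be separable, whereas the other words of Krt10 occurred in no other gene.

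The promoters of Krt5 and Krt10 are shown because one keratin was near 0 and the other was read in every tumor, and that of Dsp because it had the most counts of the 10 genes. Each line gives, 5′ to 3′, the 100 bases before the RefSeq start on GRCm38.p6, at chr15:101712906-101713005 (minus strand), chr11:99389365-99389464 (minus) and chr13:38151194-38151293 (plus). Capitals mark each CG and the motif TATAAA, which was searched on both strands.
Krt5: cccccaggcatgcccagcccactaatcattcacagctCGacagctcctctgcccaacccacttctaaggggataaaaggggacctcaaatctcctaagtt
Krt10: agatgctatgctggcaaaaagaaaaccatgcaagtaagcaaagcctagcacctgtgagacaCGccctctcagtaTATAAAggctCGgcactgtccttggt
Dsp: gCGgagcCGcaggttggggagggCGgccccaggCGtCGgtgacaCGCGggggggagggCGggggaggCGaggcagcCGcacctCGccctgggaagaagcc
Krt10 held TATAAA in the last 50 bases before its start, as did 3.50% of 32851 promoters, and the Krt5 and Dsp windows did not hold these letters. In the 250 bases before the start, Dsp had 22 CG, more than 85.2% of promoters, and Krt5 and Krt10 had 2 each against a median of 6. These are descriptions of sequence, and no binding or methylation was measured.

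Among the adhesion genes, Epcam and Cdh1 differed widely in level. Epcam (chr17:87635979-87651129), which encodes an epithelial surface adhesion protein, had 1, 1, 1, 11 and 4 counts in responders 5, 9, 10, 11 and 12. It had 7, 1, 4, 8 and 4 counts in non-responders 1, 2, 3, 6 and 7. The highest count was in responder 11 and the lowest was shared by 3 responders and non-responder 2, so the groups overlapped (18 against 24 counts, exact permutation p = 0.381).

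Cdh1 (chr8:106603351-106670246) encodes E-cadherin, the adhesion protein of epithelial junctions, which Langerhans cells of the epidermis also carry. Responders 5, 9, 10, 11 and 12 had 107, 88, 133, 212 and 184 counts, and non-responders 1, 2, 3, 6 and 7 had 151, 160, 82, 127 and 161. Per kilobase, Cdh1 was 11.8-fold above Epcam over the series. It averaged 6.12 ± 1.23 CPM in responders against 5.77 ± 0.976 in non-responders, a log2 fold change of 0.09 (SE 0.16, 95% interval -0.26 to 0.43, edgeR adjusted p = 0.911, exact permutation p = 0.603). The coefficient of variation over the 10 tumors was 17.9% where counting alone gives 8.44%. The log2 fold change was 0.06 without responder 12 and non-responder 7.

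Dsp (chr13:38151294-38198577), the gene of desmoplakin, which ties keratin filaments to the desmosome, was the most abundant of the 10 genes in CPM. Responders 5, 9, 10, 11 and 12 had 379, 187, 318, 370 and 364 counts, and non-responders 1, 2, 3, 6 and 7 had 307, 397, 289, 271 and 383. In CPM the tumors differed by at most 1.35-fold, with a coefficient of variation of 9.94% where counting alone gives 5.53%. It averaged 13.8 ± 1.75 CPM in responders against 14.05 ± 1.104 in non-responders, with a log2 fold change of -0.02 (SE 0.09, 95% interval -0.22 to 0.18, edgeR adjusted p = 0.971, exact permutation p = 0.794). Without responder 12 and non-responder 7 it was -0.01. Dsp overlaps Gm10129 by 499 bases on the opposite strand.

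Perp (chr10:18845020-18857073), a p53 target that encodes a membrane protein of desmosomes in stratified epithelia, had 0, 0, 2, 4 and 9 counts in responders 5, 9, 10, 11 and 12. It had 0, 3, 0, 3 and 13 counts in non-responders 1, 2, 3, 6 and 7. The 2 highest counts came from responder 12 and non-responder 7, in opposite groups, and the groups overlapped (15 against 19 counts, exact permutation p = 0.746). Per kilobase, Dsp was 23.3-fold above Perp. No 31-base word of Perp occurred in another gene.

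Sfn (chr4:133600556-133602168), a p53 target known from keratinocytes, was read in every tumor. Responders 5, 9, 10, 11 and 12 had 93, 37, 71, 92 and 92 counts, and non-responders 1, 2, 3, 6 and 7 had 73, 74, 47, 71 and 76. It averaged 3.24 ± 0.557 CPM in responders against 2.91 ± 0.371 in non-responders. The log2 fold change was 0.16 (SE 0.15, 95% interval -0.16 to 0.48, edgeR adjusted p = 0.795, exact permutation p = 0.349) and 0.13 without responder 12 and non-responder 7. Responder 5 had the highest CPM and responder 9 the lowest, so the non-responders lay inside the range of the responders. Of its 31-base words, 26.8% occurred in other genes, most of them in Gm7850.

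**Figure D2:**
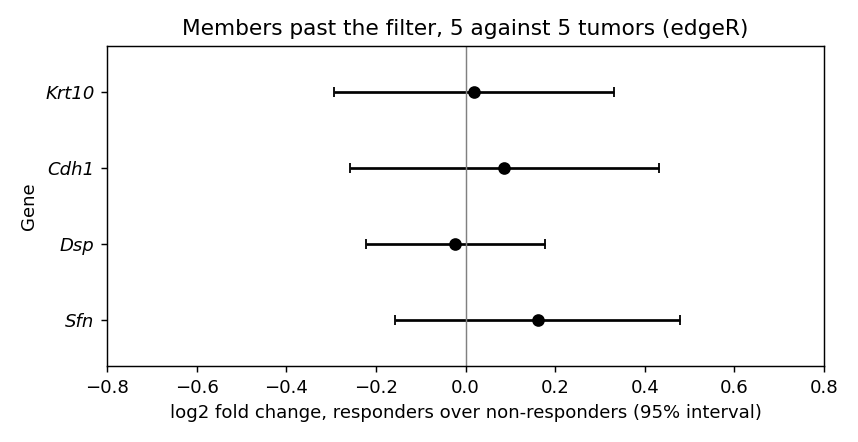
Log2 fold change of the 4 genes past the filter, responders over non-responders, from edgeR with 95% intervals. All 4 intervals included 0, and the widest reached -0.26 and 0.43 for Cdh1.

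Over the 10 genes, no call was made between responders and non-responders. Of the 4 genes past the filter, 0 passed edgeR's test at an adjusted p under 0.05, where 0% of all 14944 genes did, and 0 had an unadjusted p under 0.05, where 8.36% (1250 genes) did. DESeq2 and limma also called 0 of the 4, and over all genes they called 1 (Col6a2, a collagen VI gene) and 0. With responder 5 left out edgeR called 10 of all genes, none of them a member. The groups did not overlap for 0 of the 4, against 0.883% of all genes past the filter. The mean was higher in responders for 3 of the 4, and their median log2 fold change was 0.05 beside 0.00 for all genes. For the 5 detected genes below the filter, a fit with no filter gave edgeR adjusted p-values of 0.718 (Krt15) to 0.946 (Perp). The Krt15 value rests on 5 counts in responder 12. With 10 tumors the 95% intervals of the 4 genes reach up to 0.48 on the log2 scale.

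Ordered by level per kilobase of transcript over the series, Krt10 was at 2.36 CPM, Sfn at 1.91, Dsp at 1.61 and Cdh1 at 1.56. Epcam followed at 0.132, Krt14 at 0.104, Perp at 0.0688, Krt5 at 0.0159 and Krt15 at 0.0115, with Krt1 at 0. Neighbors in this order overlapped in their range over tumors, except Cdh1 and Epcam, which lay 11.8-fold apart with every tumor of Cdh1 above every tumor of Epcam. With the longest transcripts Krt10 was at 1.495 CPM per kilobase, below Sfn, and Epcam at 0.0856, below Krt14. In CPM, the 4 upper genes ranked from the 22.2 percentile (Sfn) to the 38.4 percentile (Dsp) of the genes past the filter.

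**Figure D3:**
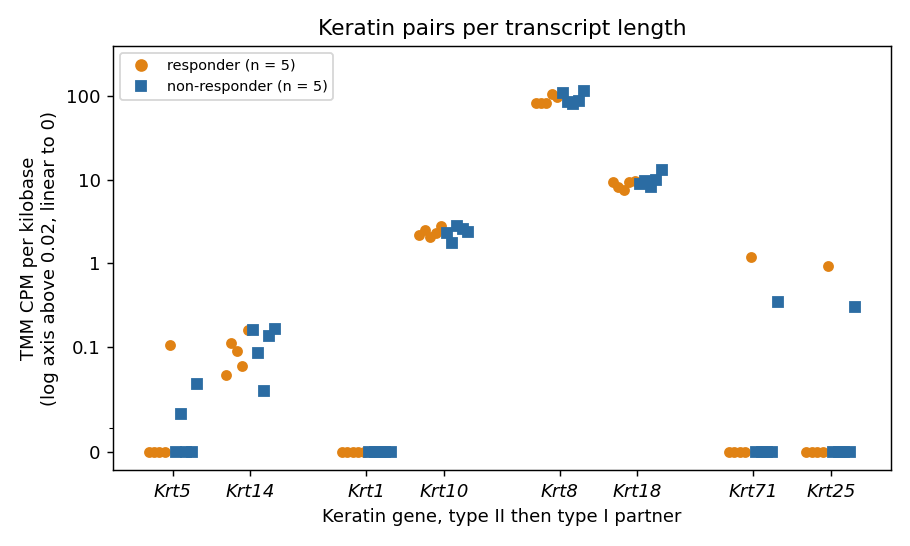
CPM per kilobase of transcript of keratin pairs in each tumor, type II then type I partner, on a log axis that becomes linear below 0.02, with responders as circles and non-responders as squares. Krt8 lay far above Krt10, and Krt18 lay between them. Krt14 was low in every tumor, Krt1 was at 0, and Krt71 and Krt25 were seen in 1 tumor of each group.

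The simple epithelial pair was the most abundant of the keratins listed. Krt8 had 2539 to 6255 counts per tumor and, per kilobase, was 39.3-fold above Krt10 (62.2-fold with the longest transcripts) and 9.88-fold above its own partner Krt18. Krt8 averaged 176.9 ± 22.0 CPM in responders against 187.1 ± 29.9 in non-responders (log2 fold change -0.08, SE 0.11, edgeR adjusted p = 0.864). Krt18 averaged 12.7 ± 1.33 CPM against 14.3 ± 2.69 (log2 fold change -0.16, SE 0.12, edgeR adjusted p = 0.735). Of 6 simple epithelial keratins 5 passed the filter, 2 higher and 3 lower in responders, with 0 at an unadjusted p under 0.05 and a median log2 fold change of -0.08.

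The 4 keratins near 0 were then set against genes of the neighboring tissues. Krt5, Krt14, Krt15 and Krt1, grouped with their low values known and without Krt10, together had 55 counts, 29 in responders and 26 in non-responders. All 10 genes together had 369 to 785 counts per tumor. Of the 55 counts of the 4 keratins, responder 12 had 18 (exact Poisson 95% interval 10.7 to 28.4). Non-responder 7 had 9 (4.12 to 17.1), and the other 8 tumors had 1 to 6 each. These 2 tumors held 49.1% of the 55 counts and 21.6% of all sequenced counts. Responder 12 also had 7 counts of Krt6a and 9 of Krt17, keratins of hair follicle and wounded skin, each of which had 1 count in non-responder 2 and 0 in the other 8 tumors. Fat and muscle were read in every piece: Adipoq, Plin1 and Cidec summed to 34 to 142 counts per tumor, and Acta1, Ckm and Myh4, genes of skeletal muscle, to 724 to 4279. Responder 12 and non-responder 7 lay inside those ranges, with 77 and 127 counts of the fat genes and 1538 and 3563 of the muscle genes. What part these tissues have in the levels of the 10 genes was not tested.

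**Figure D4:**
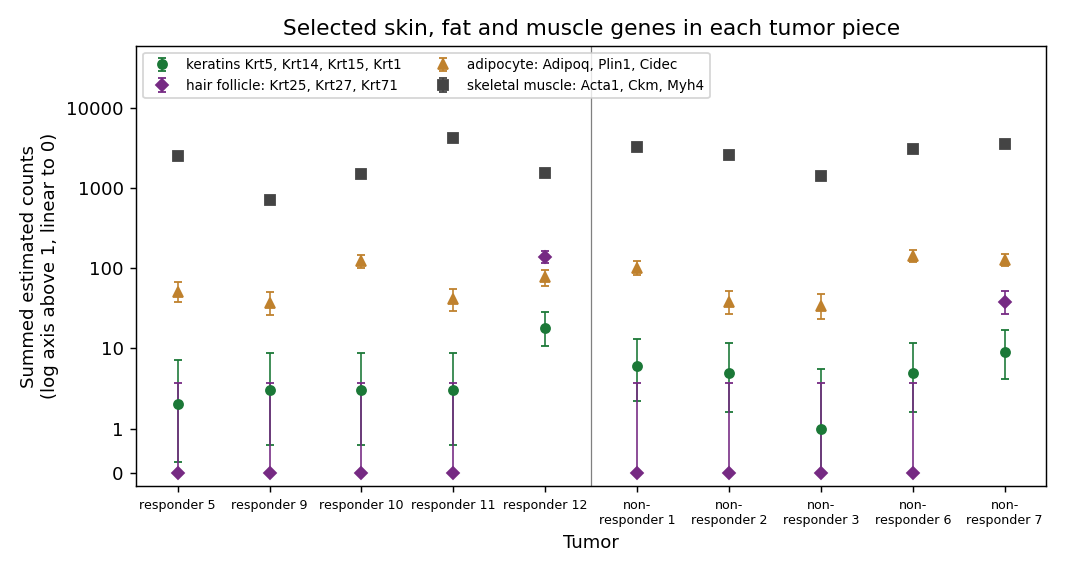
Summed estimated counts of 4 keratins near 0 and of genes of hair follicle, fat and skeletal muscle in each tumor, with exact Poisson 95% intervals that cover counting error only, on a log axis that becomes linear below 1. Krt5, Krt14, Krt15 and Krt1 summed to 1 to 18 counts, Krt25, Krt27 and Krt71 together were above 0 in responder 12 (138) and non-responder 7 (38) alone, and muscle genes summed to 724 to 4279.

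Related genes were read in hand-written lists, some of which hold members. Of 13 basal keratinocyte genes 10 passed the filter, 5 higher and 5 lower in responders (median log2 fold change 0.01). Trp63, the transcription factor gene of basal epithelium, averaged 3.28 ± 0.916 CPM in responders against 1.88 ± 0.535 in non-responders (log2 fold change 0.80, SE 0.24, edgeR adjusted p = 0.555, unadjusted p = 0.00561). Responders 9, 10, 11 and 12 lay at 3.36 to 4.17 CPM, above the highest non-responder at 2.54, whereas responder 5 lay among the non-responders at 1.73. The most abundant genes of the list were Dst, Itga6 and Itgb4, of the hemidesmosome that anchors cells to the basement membrane, with log2 fold changes of 0.09, 0.10 and -0.18, and 0 of these 3 had an unadjusted p under 0.05.

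Of 14 desmosome genes 9 passed the filter, 2 higher and 7 lower in responders, with a median log2 fold change of -0.11. Dsc2, a desmosomal cadherin gene, averaged 3.74 ± 1.41 CPM in responders against 1.92 ± 0.572 in non-responders (log2 fold change 0.95, SE 0.30, edgeR adjusted p = 0.555, unadjusted p = 0.00811). As with Trp63, responders 9, 10, 11 and 12 (3.66 to 4.83 CPM) lay above every non-responder, and responder 5 at 1.34 did not. With responder 5 left out, the log2 fold changes were 1.17 for Dsc2 and 0.97 for Trp63, with edgeR adjusted p-values of 0.0601 and 0.0676. Responder 5 had been seen among the non-responders for both genes, so leaving it out had to widen both differences. Over all genes, the same omission raised those with an unadjusted p under 0.05 from 1250 to 2095. With any other single tumor left out, the edgeR adjusted p-values were 0.311 to 0.861 for Dsc2 and 0.288 to 0.861 for Trp63. Pkp1, the plakophilin gene of stratified epithelia, averaged 35.3 ± 5.44 CPM in responders against 44.8 ± 9.73 in non-responders (log2 fold change -0.34, SE 0.14, edgeR adjusted p = 0.573). None of these 3 genes passed after adjustment over all genes.

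Genes of the upper layers of the epidermis were uneven in level: many gave few reads, and others were read in every tumor. Of 24 suprabasal and cornified layer genes 8 passed the filter, 7 higher and 1 lower in responders (median log2 fold change 0.14, 0 at an unadjusted p under 0.05), while 13 never exceeded 3 counts in a tumor and 4 had 0 counts throughout. Ivl, the gene of involucrin, had 1 count in all, and Lor, the gene of loricrin, at most 2 per tumor. Lgals7, a galectin gene of stratified epithelia, nevertheless had 53 to 98 counts (log2 fold change 0.10). Sbsn had 37 to 104 counts per tumor and Tgm1 had 24 to 99. Elovl4, a fatty acid elongase gene, was the most abundant of the list (log2 fold change 0.03). Of 27 genes of epithelial adhesion and epithelial transcription factors 8 passed, 6 higher and 2 lower (median 0.08, 0 at an unadjusted p under 0.05). Of 4 wound keratins 0 passed.

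Of 24 hair follicle and sebaceous gland genes 5 passed the filter, 2 higher and 3 lower in responders (median log2 fold change -0.22). Apart from Krt25, Krt27 and Krt71, the hair follicle keratins of that list had 85 counts, of which responder 12 had 22, non-responder 7 had 33 and the other 8 tumors 0 to 9 each. Dlx3, a homeobox gene of hair and epidermis, was lower in responders at an unadjusted p under 0.05 (log2 fold change -0.28, edgeR adjusted p = 0.573). Tchh had a log2 fold change of 0.61 (edgeR adjusted p = 0.778), and its highest value in each group was in responder 12 or non-responder 7.

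Perp and Sfn are also p53 targets, and 21 of the 22 genes of a p53 target list passed the filter, 12 higher and 9 lower in responders (median log2 fold change 0.02). Cdkn1a, the cell cycle inhibitor gene, had a log2 fold change of 0.17 and Fas, the death receptor gene, of 0.61. Zmat3 and Phlda3 had log2 fold changes of -0.18 and -0.20. These 4 had an unadjusted p under 0.05, in both directions, and edgeR adjusted p-values of 0.555 to 0.592.

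Markers of other cells in or near skin were read beside these. Of 4 Langerhans cell genes 3 passed the filter, 3 higher and 0 lower in responders (median log2 fold change 0.11), and Cd207, which encodes langerin, had 3 to 15 counts per tumor. Of 8 melanocyte genes 4 passed, 4 higher and 0 lower (median 0.21), with Mitf, the pigment cell transcription factor gene, at 0.23 (edgeR adjusted p = 0.589). Of 11 mammary epithelium genes 3 passed, 1 higher and 2 lower (median -0.08), and Csn2, a milk casein gene, had 1 count in all. Of 7 peripheral nerve genes 6 passed, 3 higher and 3 lower (median -0.02). Of the genes of these 4 lists that passed the filter, Mitf alone had an unadjusted p under 0.05.

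Most muscle and fat genes had a lower level in responders, without a call. All 16 skeletal muscle genes passed the filter, 1 higher and 15 lower (median log2 fold change -0.27), with Ckm, muscle creatine kinase, at -0.75 (edgeR adjusted p = 0.573). Of 12 adipocyte genes 9 passed, Lep included, 0 higher and 9 lower (median -0.44). Plin4, a lipid droplet gene, was at -0.44 (edgeR adjusted p = 0.592). Lep, the leptin gene, is counted in these 9 and in their median but passed the filter through 3 non-responders and no responder. Its direction was thus fixed by the filter, and its fold change is not read. It had 9, 2, 3, 0 and 3 counts in responders 5, 9, 10, 11 and 12. In non-responders 1, 2, 3, 6 and 7 it had 13, 5, 4, 25 and 13. Apart from Lep, the adipocyte genes past the filter were all lower in responders, with log2 fold changes of -0.80 to -0.08. The summed level of the muscle list averaged 214.5 ± 78.9 CPM in responders against 271.4 ± 71.9 in non-responders, and that of the fat list 43.5 ± 13.8 against 53.04 ± 21.1 CPM, so both overlapped between the groups. All 19 fibroblast and mesenchymal genes passed, 8 higher and 11 lower (median -0.05), and Col1a1 and Col3a1, the fibrillar collagens, and Snai1 had log2 fold changes of -0.27, -0.20 and -0.23 at an unadjusted p under 0.05. Over the 15 lists, 15 of 123 distinct genes past the filter (12.2%) had an unadjusted p under 0.05, beside 8.36% of all genes. Lep is counted in both the 15 and the 123, with its direction fixed by the filter, so the shares are not compared. After adjustment 0 of the list genes passed, the lowest edgeR adjusted p being 0.555.

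Features that varied most like Krt5 and Krt14 were listed as a description, since the pattern rests on few counts. By Pearson's correlation over the 10 tumors with the mean of the standardized log2(CPM + 1) of both keratins, the first were Pkp2, a desmosomal plakophilin gene (0.94), Nemf (0.90), Cldn9, a claudin gene (0.85), Prox2 (0.84), Srp72 (0.84) and Rnf128 (0.83). Ccr7 (0.83), Timm44 (0.82), Sdha (0.81) and Gpbp1 (0.81) completed the 10. The tumors share the bulk of their RNA, and responder 12 and non-responder 7 held 8 of the 9 counts of Krt5. When a feature had to pass the filter in 1 tumor only, an option added after the data were seen, Krt25 (0.88), Krt71 (0.88) and Krt27 (0.84) entered the 10.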

How the data were processed

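Bulk RNA from 10 untreated tumor pieces, 5 of responders and 5 of non-responders, was quantified by the authors with kallisto and tximport on mm10 (GRCm38), and they deposited estimated counts per gene without normalization. The annotation release is not given in the sources used here. Of 36009 rows, 9580 had no gene name (1.20% to 1.49% of counts per tumor) and were left out of library sizes and tests, and rows of 44 repeated names were summed. Estimated counts were rounded to whole numbers.

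Genes with CPM above 0.366 in at least 3 tumors were tested across the whole table with edgeR 4.0.16 in R 4.3.3 (quasi-likelihood test after TMM scaling, no covariate, p-values adjusted by Benjamini-Hochberg with a threshold of 0.05). The common biological coefficient of variation was 10.1%. Single genes were also tested by exact permutation, two-sided, of the group labels (252 assignments), on log2(CPM + pseudocount) with a pseudocount of 1. Alternatives were DESeq2 1.42.0, limma 3.58.1, other filters and pseudocounts, keeping rows without a name, and leaving out tumors. On simulated data, 83.8% of genes changed 2-fold and 98.0% of those changed 4-fold were called, with 11 unchanged genes called, over 14798 genes and with 200 changed. Coordinates, transcript lengths and shared 31-base words are from GENCODE vM21 on GRCm38, and promoters, found for 6 of the 10 genes, from RefSeq (GRCm38.p6). Lengths were the median of a gene's protein-coding transcripts. Estimated counts carry an assignment error between similar genes that was not measured, and Poisson intervals cover counting error only.

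The 10 genes and the 15 hand-written lists (205 distinct genes) were chosen with earlier results of these data known. Genes named from lists come from the 3 with the highest mean CPM and up to 4 with an unadjusted p under 0.05 per list. The group of Krt5, Krt14, Krt15 and Krt1 and the defining markers of hair follicle, fat and muscle were chosen with their values known. So were Ivl, Lor, Sbsn, Tgm1 and Csn2. Figures used Python 3.11.15 and matplotlib 3.10.9.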

Additional observations from a re-analysis of the deposited data

Results flagged for a closer look

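A value was singled out when its gap to the nearest value of its group exceeded 0.71 of the group's range. In 48 tests, 24 measures in each of 2 groups, 3 values, from 2 tumors, met this, and chance alone gives about 2.4. Krt5 in responder 12 had a log2(CPM + 1) of 0.303 against 0 in the other 4 responders, and Krt15 in the same tumor had 0.257 against 0. These values rest on 6 and 5 counts. With the other 4 responders at 0, any count above 0 would have met the rule. The figure for chance therefore does not apply to the Krt5 and Krt15 values. The summed CPM of the peripheral nerve list in non-responder 6 was 5.34 on the log2 scale, against 5.41 to 5.43 in the other non-responders.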

How the results depend on the processing

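In 19 alternatives, 0 of the 4 tested members were called by edgeR, DESeq2 or limma, and the lowest adjusted p of a member was 0.558. The count over all genes, 0 with edgeR, was 1 with DESeq2 (Col6a2, named after its value was seen), and 0 to 10 when a tumor was left out, with 10 without responder 5. Genes with an unadjusted p under 0.05 numbered 1250, and 821 (without responder 11) to 2095 (without responder 5) when a tumor was left out. Without responder 12 and non-responder 7, a choice made after the data were seen, they numbered 682. Leaving out a tumor turned the sign of log2 fold changes near 0, with ranges of -0.0806 to 0.0865 for Krt10, -0.00555 to 0.199 for Cdh1 and -0.0768 to 0.0241 for Dsp, whereas Sfn stayed at 0.10 to 0.25. Krt10 was at -0.0428 without responder 12 and non-responder 7. With the longest transcript as length, 6 of the 10 genes kept their place in the order by CPM per kilobase, Krt10 over Krt14 fell from 22.8-fold to 14.4-fold and Krt8 over Krt10 rose from 39.3-fold to 62.2-fold. Of the 10 genes most like Krt5 and Krt14, 3 were shared when Spearman's correlation was used and 5 when a feature had to pass the filter in 1 tumor only. Lep passed the filter through non-responders 1, 6 and 7 alone and was not tested when any of them was left out, so no fold change is read for it. No paired analysis was possible because no tumor number is shared between the groups. For Krt5, Krt14, Krt15, Epcam and Perp, at 0 to 13 counts per tumor, depth limits any comparison.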

Other observations

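Genes read in a few pieces only were sought among all 26378 named genes by a rule set after the data were seen: 10 or more counts in some tumor and at most 2 in 8 or more tumors. It found 15 genes, with Krt25, Krt27 and Krt71 the only keratins among them. Counted by the tumor with the highest count, 5 of the 15 genes fell to responder 11, 4 to responder 12, 2 to responder 5 and 1 to non-responder 7. Lenep had 31 counts in responder 12 and 0 in the other 9 tumors, without a count in non-responder 7. Gm10288 had 31 and 27 counts in non-responders 1 and 2 and 0 elsewhere, and 4930486L24Rik had 20 in responder 5 alone. Serpina1c, a serine protease inhibitor gene, had 10 counts in responder 9, 3 in non-responder 6 and 0 or 1 elsewhere.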
